A study of Sus scrofa with 6 samples.

Results

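The genes described here encode proteins of the splicing machinery: SR proteins, heterogeneous nuclear ribonucleoproteins (hnRNPs), the proteins of the small nuclear ribonucleoproteins (snRNPs) and their LSM relatives. They were chosen by name, as genes whose single annotated symbol starts with SRSF, HNRNP, SNRP, SF3A, SF3B, PRPF or LSM, with SNRPN left out. The rule found 59 of the 6765 genes with a single symbol on the Affymetrix Porcine Genome Array, covered by 93 of its 23999 probe sets. Each gene was represented by its probe set with the highest mean log2 signal over the 6 arrays, and the other probe sets are given where they disagreed. There were 11 SR protein genes, 17 hnRNP genes, 9 genes of Sm and other snRNP proteins, 7 SF3 genes, 9 PRPF genes and 6 LSM genes.

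The RNA came from pig embryos made by nuclear transfer, in which the nucleus of a cultured cell replaces that of an oocyte, and from the donor cells. The study asked what DJ-1, a redox-sensitive protein, does in such embryos, and injected an antibody against it. Embryos were injected with anti-DJ1 antibody (2 arrays), injected with IgG as the control (2 arrays) or not injected (1 array), and pools of 23 to 26 were collected 28 h after transfer, when many had just divided for the first time. All embryos were made with oocytes from a slaughterhouse, and the donor cells (1 array) were fibroblasts established from an adult Meishan pig, so the nuclei trace to a single animal's cell culture. The trial of an array was read from the replicate number in its label. By that number trial 1 covered all 4 groups with an array each, and the injected groups were repeated in trial 2 with separate pools. The comparisons with the non-injected and donor arrays rest on their placement in trial 1. With so few arrays, p-values rest on the spread left after group and trial are fitted, and largely on variance pooled over probe sets. Each trial is a single run, so a difference between the trials cannot be set against variation among trials. Tests against a single array assume that it varies like the replicated ones.

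Splicing removes introns from pre-mRNA in the spliceosome, which is built from snRNPs that each carry a small nuclear RNA and a ring of Sm or LSM proteins. SR proteins bind exons and recruit the spliceosome, while many hnRNPs coat the pre-mRNA and often oppose them, so the balance of these families sets which exons are kept. In an embryo before the main activation of its own genome, most mRNA was stored by the oocyte, and the transferred nucleus comes from a cell that was actively transcribing.

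Signals are the authors' deposited intensities on a linear scale, which share a common trimmed mean on every array. Of the 59 genes, 55 lay above the highest Tag control of the array (Tag probes match no pig sequence; highest signals 21.4 to 47.02) on all 6 arrays, and 58 were bright enough to be tested. The gene not tested was LSM12, an LSM protein that is not part of the ring on U6 RNA. It read 21.2, 58.3, 19.8, 43.4 and 3.72 on the embryo arrays and 191 in donor cells, and passed the highest Tag control on 2 arrays. The label of the tissues was checked against marker lists. The summed signal of 8 oocyte markers was 69637 to 112343 in embryos and 219.7 in donor cells. That of 9 fibroblast markers was 1602 to 1914 in embryos and 64366 in donor cells, most of it VIM (31965), FN1 (24455) and THY1 (6443). COL1A2 and COL3A1 were higher in donor cells by 1.72- and 2.38-fold against the trial 1 embryo arrays. In donor cells DCN, LUM and POSTN lay below the highest Tag control. DCN went the other way, at 54.7 to 111 in embryos beside 5.58 in donor cells. The sum of 9 cumulus and granulosa markers was 1621 to 2212 in embryos and 12889.7 in donor cells. Most of the donor sum was the keratin genes KRT8 (9907, beside 60.9 to 211 in embryos) and KRT18 (2103, beside 2.70 to 12.9). The lists thus separate embryos from donor cells, but their members conflict on the cell type of the donor cells, and the name fibroblasts does not rest on them. The 3'/5' ratio of the EF1A control probe sets, which rises as RNA or cDNA loses its 5' end, was 24.2, 23.9 and 29.95 on the trial 1 embryo arrays, 8.20 and 9.34 on the trial 2 arrays and 4.23 in donor cells.

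**Figure D1:**
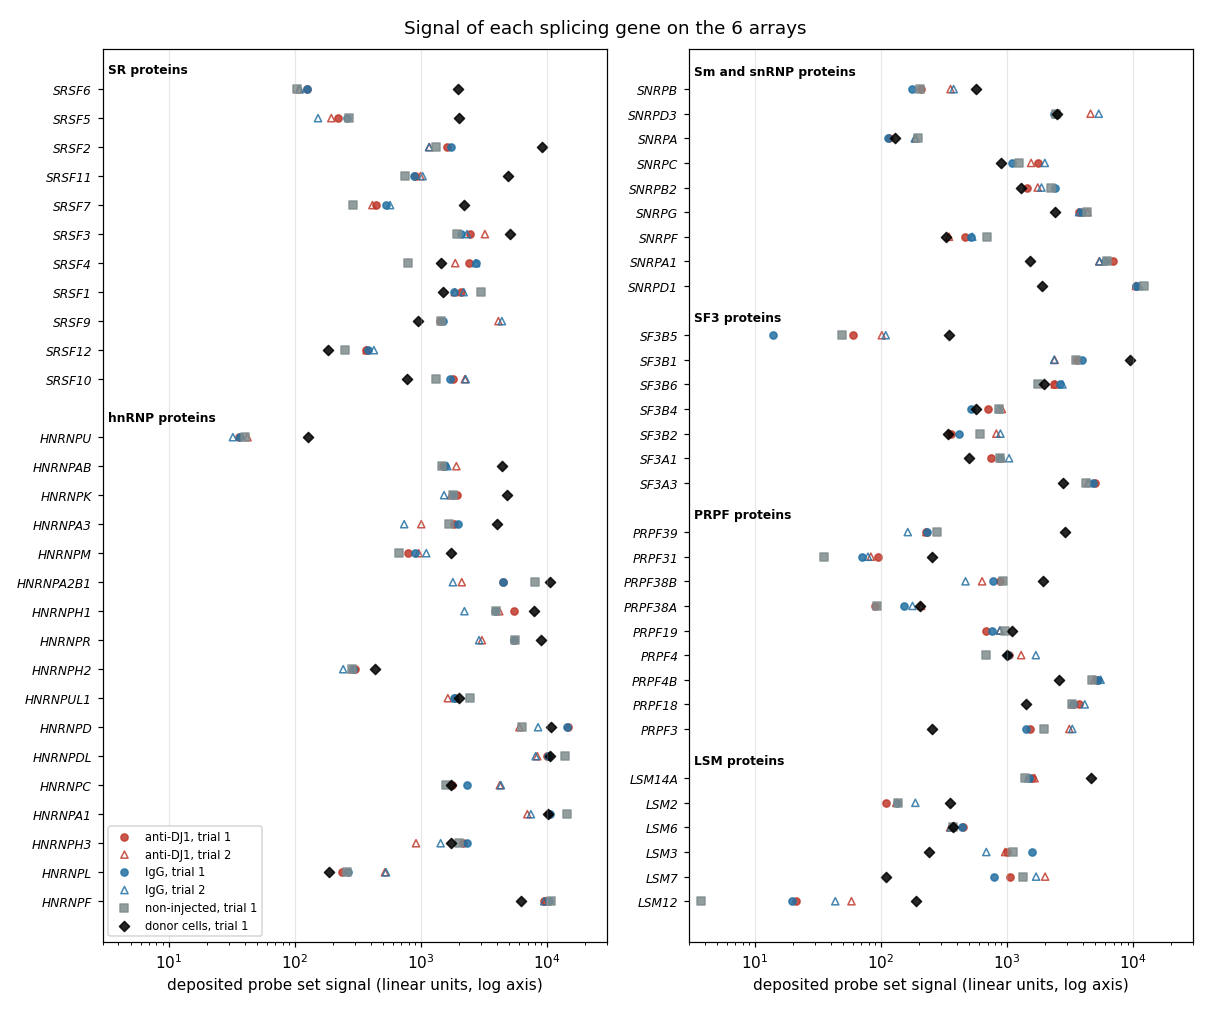
Signal of each splicing gene on each of the 6 arrays, on a log axis, 1 row of points per gene grouped by family. The donor cell point stands apart from all embryo points for SRSF6, SRSF5, PRPF39, SNRPD1 and LSM7, while the embryo points of most genes lie close together.

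The comparison with donor cells asks how the embryos differ from the cells that supplied their nuclei. Of the 58 genes tested, 18 were higher in embryos and 25 were higher in donor cells (limma, adjusted p under 0.05), against 72.9% of all tested probe sets called in either direction, 36.4% higher and 36.5% lower in embryos. A median gene of the group lay 0.05 above donor cells on the log2 scale, beside -0.02 for all tested probe sets. The fit leaves 1 residual degree of freedom, so its p-values lean on the variance pooled over probe sets. The 43 called members are 74.1% of those tested, near the share of the array as a whole. Differences are log2(embryo) minus log2(donor) from the trial 1 arrays, with the standard error (SE) of the fit, and a 95% confidence interval reached a median of 1.27-fold to either side. A signal is a share of the RNA of a sample, so fewer cells of a type and less RNA per cell cannot be told apart. The EF1A 3'/5' ratio was lower in donor cells than on any embryo array, but the other controls of this kind did not follow it. The GAPDH ratio was highest in donor cells, at 21.1 beside 6.65 to 17.6 on the embryo arrays. The actin ratio was 141 in donor cells, 45.0 and 68.4 on the trial 2 arrays and 258 to 665 on the trial 1 embryo arrays. The part of these ratios in the differences was not tested.

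Which genes were called rested in part on the scaling of the arrays. No gene called with signals as deposited was called the opposite way under another scaling. With quantile normalization the median of all probe sets moved up by 0.44, and the members were called 22 higher and 23 lower. With a common 75th percentile it moved up by 0.63, and they were called 33 higher and 19 lower. Without the trial as a block 24 genes were called, and 22 to 27 with any 1 array of the anti-DJ1 or IgG embryos left out, which also leaves no block. Called the same way under all 3 scalings were 17 genes higher in embryos (background 35.9%) and 19 lower (background 26.5%). All 15 genes not called with signals as deposited were called higher in embryos with a common 75th percentile, and with quantile normalization 5 of them were called higher (HNRNPL, LSM6, SF3B2, SF3B4 and SNRPA) and 2 lower (HNRNPD and HNRNPDL). "Not called" in what follows refers to signals as deposited.

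Of 11 SR genes, 6 were lower in embryos (54.5%, background 36.5%) and 4 were higher (36.4%, the same as the background). The family median was -1.25, and SRSF6 had the widest difference of the 58 genes. Signals below are given for the anti-DJ1 embryos of trials 1 and 2, the IgG embryos of trials 1 and 2 and the non-injected embryos, in that order. SRSF6 (SRp55), a regulator of alternative exons, read 125, 108, 125, 109.6 and 103 in embryos and 1964 in donor cells. All embryo arrays lay far under the donor array, and the difference was -4.01 ± 0.27 (adjusted p = 4.08e-08). SRSF5 (SRp40) read 219.8, 195, 257, 153 and 271 in embryos against 2011, a difference of -2.99 ± 0.24. SRSF2 (SC35), a protein of nuclear speckles, read 1598, 1165, 1735, 1160.3 and 1311 against 9081, a difference of -2.56 ± 0.14. SRSF11 (p54) differed by -2.55 ± 0.16 and SRSF7 (9G8), which also serves mRNA export, by -2.41 ± 0.19. For all of these genes every embryo array lay under the donor array. SRSF3 (SRp20) differed less, by -1.25 ± 0.14, so that 6 of the 11 SR genes were lower in embryos under all 3 scalings (background 26.5%).

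Another 4 SR genes were higher in embryos under all 3 scalings (background 35.9%), by smaller margins. SRSF10 (SRp38), which represses splicing when dephosphorylated, as in mitosis, read 1787, 2228, 1703, 2265 and 1319.6 in embryos and 776 in donor cells, a difference of 1.03 ± 0.15. SRSF12, a relative of SRSF10, differed by 0.82 ± 0.22, SRSF9 (SRp30c) by 0.61 ± 0.14 and SRSF1 (SF2/ASF), the founding member of the family, by 0.60 ± 0.16. The probe sets of SRSF1, SRSF9 and SRSF10 disagreed, as described with the other probe sets. SRSF4 (SRp75) was not called, at 0.25 ± 0.16.

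The hnRNP genes were on the donor side less far. Of 17, 9 were lower in embryos (52.9%, background 36.5%) and 1 was higher (5.88%, background 36.4%) with the signals as deposited. The family median of -0.58 moved to -0.35 with quantile normalization and to 0.05 with a common 75th percentile. Under that last scaling the calls were 8 higher and 5 lower, so no direction can be given to the family as a whole. HNRNPAB, HNRNPK, HNRNPA3, HNRNPM and HNRNPA2B1 were lower under all 3 scalings. HNRNPK, which binds C-rich RNA and DNA, read 1922, 1729, 1809, 1526 and 1787 in embryos and 4825 in donor cells, a difference of -1.39 ± 0.14, and its second probe set differed by -2.84. HNRNPAB differed by -1.54 ± 0.15, HNRNPM by -1.14 ± 0.16, HNRNPA3 by -1.14 ± 0.17 and HNRNPA2B1 by -0.95 ± 0.13. For HNRNPA2B1, however, other probe sets reached 1.22, and 1 of them was called higher in embryos. HNRNPH1, HNRNPR and HNRNPH2 were lower with signals as deposited, at -0.86, -0.71 and -0.58, but not with a common 75th percentile, and HNRNPH2 not with quantile normalization either. The second probe set of HNRNPH2 was called higher in embryos, at 1.22. HNRNPU, which attaches chromatin to nuclear RNA, was dim, at 35.96, 42.2, 37.04, 32.3 and 40.5 in embryos and 126 in donor cells, under the highest Tag control on the trial 2 IgG and non-injected arrays, with a difference of -1.63 ± 0.57 that was not called under the other scalings. HNRNPF, a binder of G-runs, was the hnRNP gene called higher in embryos, at 0.71 ± 0.12, though not under quantile normalization. HNRNPA1, the classical antagonist of SRSF1, read 10304, 6972, 10589.9, 7441 and 14299.8 in embryos and 10130.1 in donor cells, a difference of 0.20 ± 0.11 (adjusted p = 0.14). Also not called were HNRNPC, HNRNPD, HNRNPDL, HNRNPH3, HNRNPL and HNRNPUL1, with differences from 0.03 to 0.43. The second probe set of HNRNPD, however, differed by 1.04 and was called higher in embryos.

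Of 9 Sm and snRNP genes, 6 were higher in embryos under all 3 scalings and 1 was lower, where 35.9% and 26.5% of all probe sets were. For SNRPA1 and SNRPG, among the 6, a second probe set was called the opposite way (-2.09 and -1.07). The family median was 0.61 with signals as deposited and 0.80 and 1.24 under the other scalings. SNRPD1 (SmD1), a subunit of the Sm ring of the spliceosomal snRNPs, read 10539, 10492, 10425, 11141 and 12146 in embryos and 1890.4 in donor cells. The 5 embryo arrays spanned a narrow range, all far above the donor array, and the difference of 2.54 ± 0.12 had the smallest adjusted p of the 58 genes (1.13e-09). SNRPF and SNRPG, further ring subunits, differed by 0.74 ± 0.21 and 0.71 ± 0.14. Of the proteins particular to the U2 snRNP, SNRPA1 differed by 2.06 ± 0.13 and SNRPB2 by 0.61 ± 0.18. SNRPC of the U1 snRNP differed by 0.58 ± 0.23. The exception was SNRPB, which encodes the ring proteins SmB and SmB', and read 206, 356, 177, 377 and 204 in embryos and 570.5 in donor cells, a difference of -1.52 ± 0.23. SNRPD3 and SNRPA were not called, at -0.05 ± 0.14 and 0.08 ± 0.30.

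The SF3a and SF3b complexes join the U2 snRNP at the branch point of the intron. SF3A1 and SF3A3 of SF3a were higher in embryos, by 0.72 ± 0.17 and 0.74 ± 0.13. SF3B1, the largest subunit of SF3b, read 3582, 2376, 3938, 2359 and 3524 in embryos and 9389 in donor cells, a difference of -1.35 ± 0.13. SF3B5 differed by -3.14 ± 0.53, from embryo signals of 59.7, 101, 13.96, 109 and 48.9, of which that of the IgG array of trial 1 lay under the highest Tag control, and a donor signal of 348. SF3B2, SF3B4 and SF3B6, which contacts the branch point adenosine, were not called, at 0.39, 0.26 and 0.18. Under quantile normalization SF3B2 and SF3B4 were called higher in embryos, by 1.08 and 0.76, and with a common 75th percentile by 1.02 and 0.89, so that subunits of SF3b were then called on both sides.

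PRPF proteins are named after yeast pre-mRNA processing mutants and act at different steps. PRPF3 and PRPF4 belong to the U4/U6 part of the tri-snRNP. PRPF3 read 1511, 3112, 1411, 3285 and 1958 in embryos and 253 in donor cells, a difference of 2.65 ± 0.15, whereas PRPF4, its partner, was not called at -0.15 ± 0.18. PRPF31, which bridges that complex to the U5 snRNP, was lower in embryos, at -1.96 ± 0.40. Its non-injected signal of 35.4, which enters that estimate, lay under the highest Tag control. PRPF39, a protein associated with the U1 snRNP, read 229, 229, 230.2, 163 and 277 in embryos and 2896 in donor cells, a difference of -3.54 ± 0.23. PRPF18, which acts in the second catalytic step, differed by 1.28 ± 0.16 and the kinase PRPF4B by 0.96 ± 0.13, both higher in embryos. PRPF19, a ubiquitin ligase, differed by -0.47 ± 0.17 and PRPF38A by -0.89 ± 0.34, and neither was called under the other scalings, where PRPF38A gave -0.14 and -0.26. PRPF38B, related to PRPF38A, differed by -1.16 ± 0.17 and was lower under all 3.

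LSM2, LSM3, LSM6 and LSM7 encode subunits shared by the ring on U6 RNA and the ring that promotes mRNA decay in the cytoplasm. LSM7 read 1061, 1999, 788, 1695 and 1342 in embryos and 109 in donor cells, and its difference of 3.19 ± 0.17 was the highest of the 58 genes. LSM3 read 995, 963, 1583, 683 and 1119.8 against 238, a difference of 2.32 ± 0.26. LSM2 differed the other way, by -1.46 ± 0.29, and LSM6 was not called, at 0.16 ± 0.21. LSM14A, a translational repressor of cytoplasmic P-bodies and not a spliceosome subunit, read 1581, 1648, 1494, 1466 and 1381 against 4609, a difference of -1.63 ± 0.14. Subunits of the same ring were thus called on both sides.

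**Figure D2:**
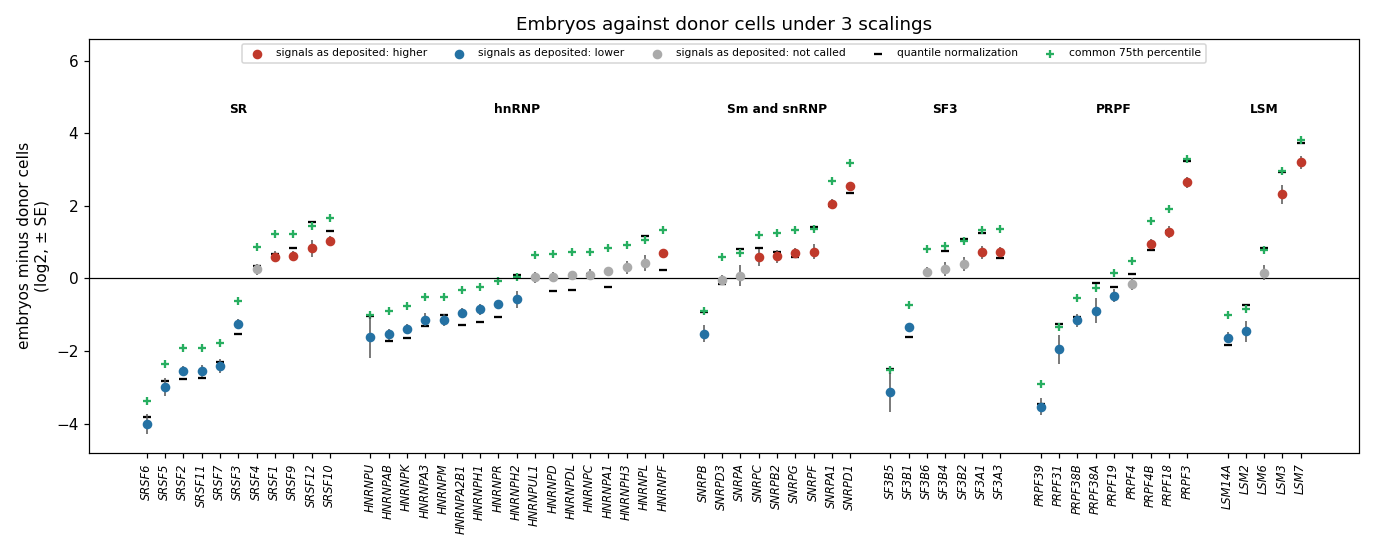
Difference between embryos and donor cells on the log2 scale for 58 genes by family, with points and SE bars for signals as deposited (red higher in embryos, blue lower, grey not called), dashes for quantile normalization and crosses for a common 75th percentile. The far points on either side (SRSF6, PRPF39, LSM7, PRPF3) keep their side under each scaling, while several hnRNP genes cross 0.

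A stricter description, without a test, counted genes that were at least 4-fold from the donor array on each of the 5 embryo arrays. There were 5 such genes with the donor array higher (SRSF6, SRSF5, SRSF2, SRSF11 and PRPF39), or 8.62% of the members beside 14.6% of all tested probe sets. With the donor array lower there were 3 (LSM7, PRPF3 and SNRPD1), or 5.17% beside 15.1%. Differences this wide were therefore no more frequent among the splicing genes than on the array as a whole.

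The probe sets of a gene did not always give the same answer. Of 17 genes with several tested probe sets, the sign of the difference between embryos and donor cells was not shared in 10, and in 7 probe sets were called in opposite directions. SRSF1 was called higher by its brightest probe set (0.60) and by another (2.48), and lower by the remaining probe set (-0.94). The probe sets of SRSF10 gave 1.03, -1.62 and -0.13. HNRNPA2B1 gave -0.95, 1.22 and 0.60. For SNRPA1 the values were 2.06 and -2.09, and for SNRPG 0.71 and -1.07. LSM6 gave 0.16, -1.69 and 2.03, and HNRNPH2 gave -0.58 and 1.22. Which transcript forms each probe set reads was not tested, and many of these genes have close paralogs or pseudogenes whose signal a probe set could share. In contrast, all 6 probe sets of SRSF6 were lower in embryos, with embryo signals from 3.08, under the highest Tag control, to 125 and donor signals from 1135 to 4134, and the 3 tested probe sets of SRSF11 were lower as well.

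**Figure D3:**
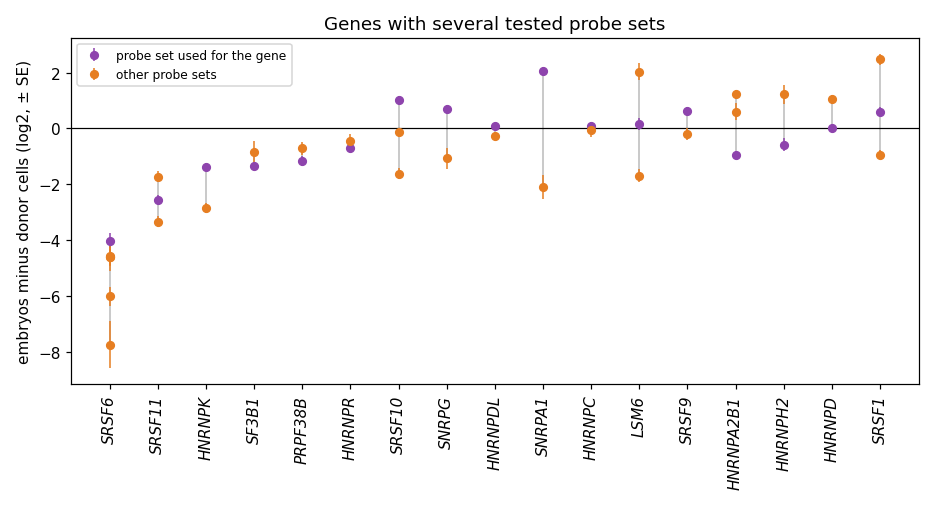
Difference between embryos and donor cells (log2) of each tested probe set of the genes with several, 1 column per gene. Points of SRSF6 all lie below 0, while points of SRSF1, SRSF10, LSM6, SNRPA1, SNRPG, HNRNPH2 and HNRNPA2B1 lie on both sides.

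Injection with either antibody was compared with no injection, which asks what differs in embryos that received an injection. The estimate is the mean of the injected arrays of trial 1 (anti-DJ1 and IgG) minus the non-injected array of that trial, and the trial 2 arrays enter through the error. Of the 58 genes, 2 were higher in injected embryos and 1 was lower, beside 2.71% of all tested probe sets in either direction (1.87% higher and 0.84% lower). The median over the members was 0.05 and over all probe sets -0.01.

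SRSF4 (SRp75), a long SR protein, read 787 without injection and 2388 and 1872 with anti-DJ1 antibody (trials 1 and 2), and 2729.5 and 2732 with IgG. All 4 injected arrays lay above the non-injected array, and above the donor signal of 1454. The difference was 1.69 ± 0.16 (limma, adjusted p = 0.000795). HNRNPD (AUF1), which binds AU-rich elements and steers mRNA decay, read 6271 without injection and 14642 and 14358 on the injected arrays of trial 1, a difference of 1.21 ± 0.15 (adjusted p = 0.00333). The injected arrays of trial 2, at 6035 and 8485, lay on either side of the non-injected value, and a second probe set of the gene differed by 0.17. HNRNPA2B1, which carries mRNAs and binds methylated RNA, read 8029 without injection and 4445, 2107, 4485 and 1790.3 with it. All 4 injected arrays lay below the non-injected array, with a difference of -0.85 ± 0.14 (adjusted p = 0.0136), but its other probe sets differed by 0.29 and 0.31.

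Each of these 3 calls held under all 3 scalings, beside 1.64% of probe sets higher and 0.5% lower under all of them. None of the 58 genes was called when the trial was left out as a block, when the mean-variance trend was left out, or when any array of an injected group was left out, which also leaves no block. At an unadjusted p under 0.05 these settings held 2, 7 and 2 to 5 genes. Without the block SRSF4 differed by 1.61 (adjusted p = 0.641).

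Other genes had every injected array on the same side of the non-injected array without passing the threshold. SRSF7 was 0.72 higher (adjusted p = 0.0744), and the tri-snRNP genes PRPF31 and PRPF4 lay above it too, PRPF4 by 0.59. For PRPF31 the non-injected signal of 35.4 was under the highest Tag control, and the injected arrays read 94.6, 83.1, 70.4 and 78.8. On the other side SRSF1 read 3019.6 without injection and 2079, 1854, 1833 and 2182 with it, a difference of -0.63 ± 0.17 (adjusted p = 0.0656). SNRPA and SNRPF gave -0.76 and -0.49. At an unadjusted p under 0.05 were 20 of the 58 genes, or 34.5%, beside 2788 of the 14399 probe sets.

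**Figure D4:**
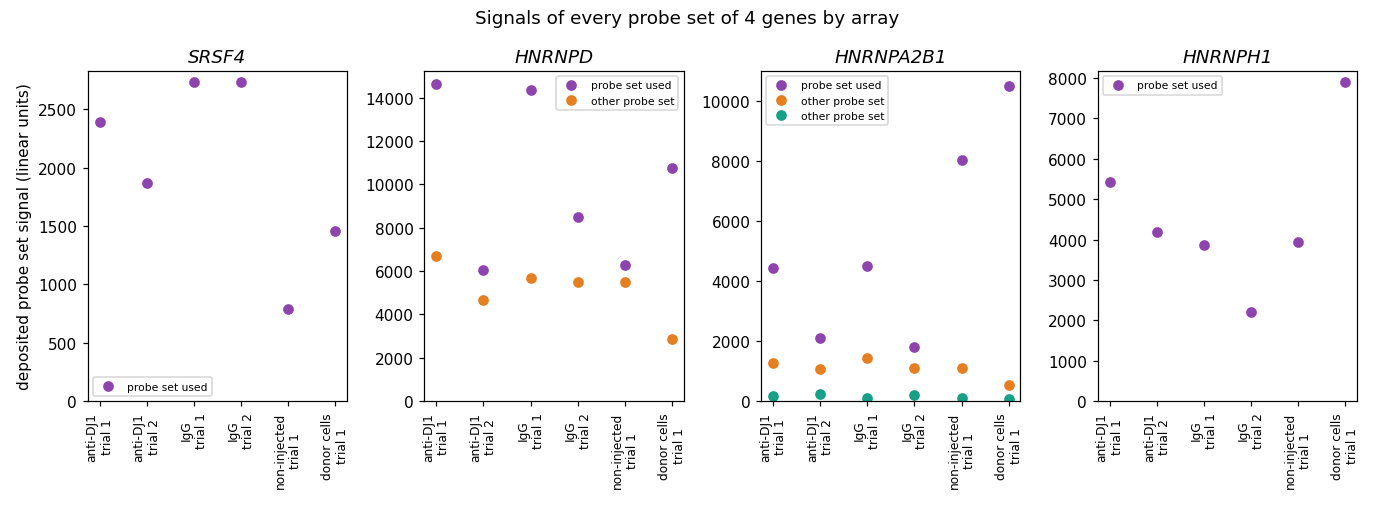
Deposited signals (linear axis from 0) of the tested probe sets of SRSF4, HNRNPD and HNRNPA2B1, called between injected and non-injected embryos, and of HNRNPH1, on the 6 arrays. SRSF4 lies above its non-injected value on all 4 injected arrays, whereas the lower probe sets of HNRNPD and HNRNPA2B1 do not follow the probe set used. For HNRNPH1 both anti-DJ1 points lie above both IgG points.

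The anti-DJ1 antibody went with no called difference in any splicing gene. None of the 58 genes passed the threshold against IgG embryos (limma), and 0% of the 14399 probe sets did, so the comparison as a whole made no call. At an unadjusted p under 0.05 were 6 of the 58, or 10.3%, beside 839 probe sets, or 5.83%. A 95% confidence interval reached a median of 1.23-fold to either side of a gene's estimate, from 1.16-fold to 2.13-fold, and the median difference was -0.02 beside -0.01 for all probe sets. In 26 genes the sign of the difference was the same in both trials and in 32 it was not, and no gene was 1.5-fold apart the same way in both, beside 2.13% of probe sets.

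HNRNPH1, which binds G-runs and regulates alternative exons, had the smallest p of the group. It read 5418 and 4178 in anti-DJ1 embryos and 3871 and 2212 in IgG embryos, beside 3949 without injection and 7892 in donor cells. Anti-DJ1 was the higher array in both trials, by 0.48 and 0.92 on the log2 scale, and both anti-DJ1 arrays lay above both IgG arrays. The estimate was 0.70 ± 0.13 with a 95% interval from 0.43 to 0.97 (adjusted p = 0.288). It passed when only the upper 40% of probe sets were fitted (adjusted p = 0.000124) and under no other setting of the fit that was tried. That value lay below its unadjusted p in the fit reported (limma, 0.00013), so the setting changed more than the number of tests. Against donor cells the adjusted p of SNRPD1 likewise went from 1.13e-09 to 1.75e-33 at the same log2 difference. SRSF3, LSM7 and PRPF38B were higher in both trials, with estimates of 0.35 ± 0.12, 0.33 ± 0.15 and 0.30 ± 0.15. SNRPB2, LSM2, HNRNPH3 and SNRPF were lower in both, with estimates of -0.42 ± 0.16, -0.38 ± 0.25, -0.38 ± 0.15 and -0.37 ± 0.18. Leaving out 1 array turned the sign of LSM7 (to -0.22), PRPF38B (to -0.064) and HNRNPH3 (to 0.23). Those fits have no block, so their estimates also take in part of the difference between trials. The second probe set of PRPF38B gave -0.11. The adjusted p of these 7 genes lay between 0.826 and 0.927.

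The repeat trial was compared with the original in the same fit. Of the 58 genes, 12 were higher and 11 were lower in trial 2 (limma, adjusted p under 0.05), beside 32.3% of all tested probe sets called in either direction, 19% higher and 13.4% lower. The term compares the injected arrays of trial 2 with those of trial 1. Under the other scalings the calls were 11 higher and 13 lower (quantile) and 9 higher and 18 lower (75th percentile), with the median of all probe sets moved by -0.15 and -0.24. Without the mean-variance trend 0 were called, and 19 had an unadjusted p under 0.05. The same way under all 3 scalings were 9 genes higher (background 11%) and 10 lower (background 11.1%).

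Among the hnRNP genes 8 of 17 were lower in trial 2 (47.1%, background 13.4%). Of these, 7 were so under all 3 scalings (background 11.1%): HNRNPA1, HNRNPA2B1, HNRNPA3, HNRNPD, HNRNPH1, HNRNPH3 and HNRNPR. HNRNPA3 read 1823 and 1958 in trial 1 and 1006 and 737 in trial 2, for the anti-DJ1 and IgG embryos, a difference of -1.13 ± 0.15 (adjusted p = 0.000218). The trials did not overlap. HNRNPA2B1 differed by -1.20 ± 0.11, HNRNPD by -1.02 ± 0.12, HNRNPH3 by -0.95 ± 0.15 and HNRNPR, a relative of SYNCRIP, by -0.88 ± 0.11. Going the other way, HNRNPC, which binds U-tracts and keeps mRNA in the nucleus, read 1748 and 2337 in trial 1 and 4219.9 and 4304 in trial 2, a difference of 1.07 ± 0.13. HNRNPL, a binder of CA repeats, differed by 1.05 ± 0.20. The second probe sets of HNRNPC and HNRNPR gave -0.38 and 0.44, opposite in sign to those used, and that of SF3B1 gave 0.25. The other probe sets of HNRNPA2B1 gave -0.31 and 0.64 (neither called), against -1.20 for the probe set used.

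The other families were mixed. SRSF10 was the gene with probe sets called in opposite directions between the trials, at 0.36 for the probe set used, -0.06 (not called) and -0.82. SRSF9 read 1407 and 1495 in trial 1 and 4113 and 4383 in trial 2, a difference of 1.55 ± 0.12 (adjusted p = 1.43e-05), while a second probe set gave -0.49. SRSF2 was lower in trial 2, at -0.52 ± 0.12. The ring subunit SNRPD3 read 2410.1 and 2335 in trial 1 and 4582 and 5323 in trial 2, a difference of 1.06 ± 0.12. SNRPB was higher by 0.92, PRPF3 by 1.13, SF3B2 by 1.13 and LSM7 by 1.01, while SF3B1 and PRPF38B were lower, at -0.66 and -0.60. SF3B5 was higher by 1.67, from signals of 59.7 and 13.96 in trial 1 and 101 and 109 in trial 2. SF3B4 differed by 0.54 with signals as deposited.

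The non-injected array belongs to trial 1 by its replicate number but does not enter the trial term. It lay nearer the injected arrays of trial 1 for 9 of the 12 genes higher in trial 2 and for 9 of the 11 lower, or 75% and 81.8%, beside 78.4% and 79.2% of all called probe sets. The EF1A and actin 3'/5' ratios were lower on both trial 2 arrays than on the embryo arrays of trial 1. The GAPDH ratio did not separate the trials, at 6.65 and 16.1 in trial 2 and 17.6, 7.46 and 8.49 in trial 1. Poly-A control RNAs were bright only on the trial 2 arrays. The part of these controls in the differences between trials was not tested.

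**Figure D5:**
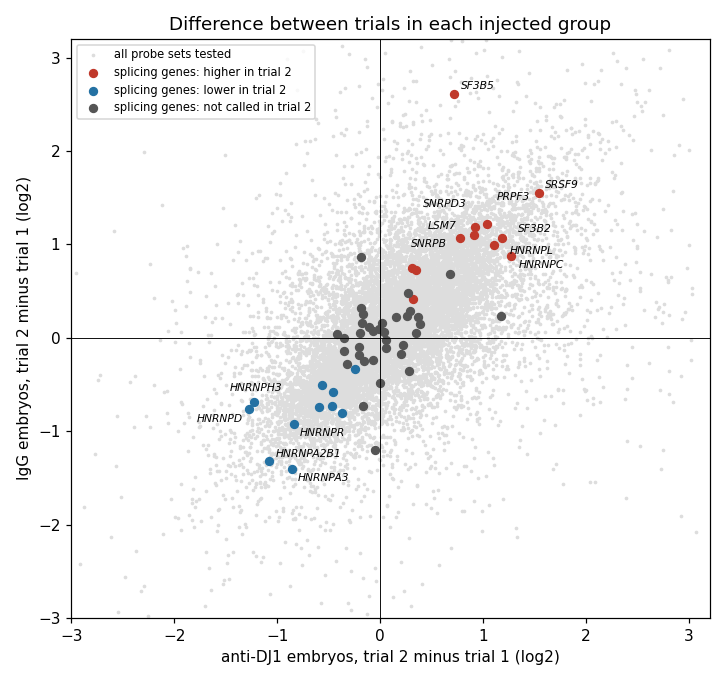
Trial 2 minus trial 1 (log2) in anti-DJ1 embryos on the x axis and in IgG embryos on the y axis, for splicing genes (red higher, blue lower, dark grey not called) over all tested probe sets (light grey; those beyond 3 on either axis fall outside the frame). The called genes lie in the quadrants where both groups moved the same way, with SRSF9 and SF3B5 at the upper right and HNRNPA2B1 and HNRNPA3 at the lower left.

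A list of other splicing genes outside these families held 107 symbols, of which 67 were measured and 65 tested. It was described with the same fit. Between anti-DJ1 and IgG embryos limma called 0 of 65, and 7 had an unadjusted p under 0.05, where 5.83% of all probe sets did. Between injected and non-injected embryos 4 were higher (6.15%, background 1.87%) and 1 was lower (1.54%, background 0.84%), and with quantile normalization 3 and 0. The cap-binding subunit gene NCBP2 was higher (0.68) and RNPS1, which joins splicing to the exon junction complex, was lower (-0.70). The others were the U2AF large subunit gene U2AF2, the SR protein kinase gene CLK1 and SNRNP48 of the minor spliceosome. Their non-injected signals of 9.70, 1.77 and 30.01 all lay under the highest Tag control of that array (47.02), and so no size is given. On the injected arrays U2AF2 read 70.8 to 96.5, SNRNP48 63.99 to 132 and CLK1 23.1 to 41.1, near the Tag controls.

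Against donor cells 33 of the 65 were higher in embryos (background 36.4%) and 20 were lower (background 36.5%), with a median of 0.63. With quantile normalization 37 were higher and 19 lower, and with a common 75th percentile 42 and 18. In the group of Prp19 complex and step factors 9 of 12 were higher and 3 were lower with signals as deposited, with a median of 1.08. Named on the embryo side were ESRP1, a regulator of epithelial exons (4.13), MAGOH of the exon junction complex (3.55), SNW1 (3.46) and GEMIN8 (3.38). On the donor side were CLK1, LUC7L3, SNRNP48 and GEMIN2, which works in snRNP assembly, with donor signals of 2350.5, 1701, 2133 and 841. Their signals lay under the highest Tag control on some embryo arrays, and so they are given no size and no order. Between the trials 22 were higher in trial 2 (background 19%) and 12 were lower (background 13.4%), but 11 and 23 with a common 75th percentile.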

How the data were processed

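Signals of 6 arrays were used as deposited. Per the submitters' processing notes the authors summarised the arrays with MAS5, whose version and scaling target were not given in the sources used here. Values as deposited are intensity values on a linear scale. Per the labels' protocols, 50 ng of total RNA per sample was amplified and labelled with biotin. Of 24123 probe sets, 124 controls were left out; of the other 23999, the platform annotation, which can be old, gave 10069 a single symbol, 198 several and 13732 none. All 59 genes matched a RefSeq symbol.

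Values were set to log2(signal + 4.6), the 10th percentile of all signals, which understates changes of dim probe sets. The upper 60% by mean (14399 probe sets) were tested with limma 3.58.1 (lmFit, eBayes with a mean-variance trend) in R 4.3.3. The model took all 6 arrays and had terms for the group and the trial. P-values were two-sided, adjusted over all tested probe sets by Benjamini-Hochberg, and called under 0.05. The fit has 1 residual degree of freedom and a prior of 10.7. The trial is a block because each trial had its own IgG control, per the design text. The pairing was checked from deviations from the group means, which gave r = 0.589 between same-trial arrays (across probe sets, not independent replicates). On simulated data the fit recovered the changes made, but in most runs the share of false calls was above the nominal one, so adjusted p-values may be too small. Errors are standard errors of the fit, and the number of arrays limits the precision.

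Members and lists were chosen with earlier results of these data known. Named with full values were, per comparison, up to 10 genes a direction past the threshold; where fewer than 4 passed, up to 4 genes lying on the same side throughout, as values only; the genes with the highest signals of each family; and genes whose probe sets disagreed in sign where a change passed. From the list of other splicing genes up to 4 a direction were named. Alternatives changed the pseudocount, the filter, the scaling, the trend, the block, the probe set and the arrays used. No sequences are shown, since none were used here.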

Additional observations from a re-analysis of the deposited data

Results flagged for a closer look

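The 3' probe set of the poly-A control dap, an RNA that can be added to samples before labelling and that is not a pig transcript, gave a signal of 2913 on the anti-DJ1 array of trial 2 and 3065 on the IgG array of trial 2. On the other 4 arrays it read 3.84, 23.1, 1.69 and 1.79. These control probe sets enter none of the comparisons. The hybridization control bioC read 1093 and 1168 on the same trial 2 arrays and 2612 to 6155 on the others. Whether this bears on the 23 splicing genes called between the trials was not tested.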

How the results depend on the processing

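Of 773 values of named splicing genes compared under an alternative, 650 kept their direction and side of the threshold, 94 were no longer called, 8 became called and 21 reversed, of which 15 had been called. For anti-DJ1 against IgG, 1 of 58 genes was called in the upper 40% of probe sets and 0 under every other setting, with 0 to 0 when arrays were left out; HNRNPH3 ranged from -0.99 to 0.23 on leaving out an array, LSM7 from -0.22 to 0.88 and PRPF38B from -0.064 to 0.66, with -0.11 for the second probe set of PRPF38B. For injected against non-injected embryos, 3 genes became 6 with the pseudocount at the 25th percentile or a common 75th percentile, 11 in the upper 40%, 1 with second probe sets, and 0 without the trend or with no replicate block; leaving out an array gave 0 to 3 (3 without the donor array, 0 without any injected array). For embryos against donor cells, 43 became 24 with no replicate block and 22 to 44 with an array left out (44 without the non-injected array). For trial 2 against trial 1, 23 became 0 without the trend and 23 to 25 with the non-injected or the donor array left out, while leaving out an injected array leaves no test. Leaving out the donor array, and the non-injected array outside the donor comparison, was chosen after seeing the data. The block is the pairing by trial, and fits with an injected array left out have no block, since no residual degree of freedom would remain. Their estimates of anti-DJ1 against IgG therefore also take in part of the difference between trials. With second probe sets the value of HNRNPA2B1 reversed to 0.29 (injected) and 1.22 (donor); in the donor comparison HNRNPH2 reversed to 1.22, LSM6 to -1.69, SNRPA1 to -2.09, SNRPG to -1.07, SRSF1 to -0.94, SRSF10 to -1.62 and SRSF9 to -0.19, and between trials HNRNPC to -0.38, HNRNPR to 0.44, SF3B1 to 0.25, SRSF10 to -0.064 and SRSF9 to -0.49. HNRNPH2 against donor cells was 0.086 with quantile normalization and 0.046 with a common 75th percentile. Beyond the missing block, the cause of these changes was not tested. Genes near the highest Tag control (SF3B5, HNRNPU, PRPF31) had the widest errors.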
